A study of Mus musculus with 8 samples.

Results

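The cyclin-dependent kinase inhibitors of the mouse were followed in cultured satellite cells that lack Dnmt3a and in wild-type cells as both differentiated. The family was taken by gene name from the array annotation: Cdkn1a, Cdkn1b, Cdkn1c, Cdkn2a, Cdkn2b, Cdkn2c and Cdkn2d, 7 genes read by 11 of the 39429 probes and 20 of the 43020 non-control spots. The Dnmt3a-KO cells came from knockout mice and the WT cells from their littermates, matched for age and sex and given as 8-week-old males. Both groups were prepared from the extensor digitorum longus, a fast leg muscle, grown for 5 days, replated at matched cell number, and kept in differentiation medium for 2, 4, 5 or 6 days. Each genotype had 1 one-colour Agilent array per day, 4 arrays per genotype and 8 in all, so no genotype was repeated within a day. The labels do not give the Cre driver, the deleted exons or the number of mice, and separate cultures for each day are not stated. The p-values of a genotype difference therefore measure only its spread between the 4 days, which may be technical. Those of the day slope and of the genotype by day interaction measure the spread of the arrays around straight lines over the days, which may be technical too.

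Cyclin-dependent kinases drive a cell through its division cycle once a cyclin has bound them. The CIP/KIP inhibitors Cdkn1a (p21), Cdkn1b (p27) and Cdkn1c (p57) bind the complex of kinase and cyclin, whereas the INK4 inhibitors Cdkn2a (p16), Cdkn2b (p15), Cdkn2c (p18) and Cdkn2d (p19) bind Cdk4 and Cdk6 and keep D-type cyclins away. The Cdkn2a gene also encodes Arf, which restrains Mdm2 and so protects p53, from a start of its own. Myoblasts leave the cycle before they fuse into myotubes, and Cdkn1a and Cdkn1c are known to act together in that exit. Cdkn1c is imprinted and expressed mainly from the maternal copy, and it has been described as a target of the de novo DNA methyltransferase Dnmt3a in satellite cells. No source used here gives the direction of that relation, and the differences below were not set against it.

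Signals are given relative to the array, as the processed intensity of a probe divided by the 75th percentile of that array's non-control spots, and differences are on the log2 scale, Dnmt3a-KO minus WT of the same day. All 11 probes were well above background on all 8 arrays, and all 7 genes entered the fit over 19655 genes. Levels of different probes are not comparable, since each probe binds its target with its own strength. The array totals stood in ranges that separate the days: the 75th percentile was 1482 to 1528 intensity units on the 2 arrays of day 2 and 719.5 to 841.2 on the 6 later arrays. Day 2 was scanned in a session of its own, on slide 1, with another scanner and software version than days 4 and 5, on slide 2, and day 6, on slide 3. The sex-linked transcripts also parted the days and went against the label on the later ones, since 4 transcripts of the Y chromosome (Uty, Kdm5d, Eif2s3y, Ddx3y) passed background on 2 of 2 day 2 arrays and 0 of 6 later arrays, and Xist, the RNA of the inactive X chromosome, on 0 of 2 day 2 arrays and 6 of 6 later arrays. A change between day 2 and the later days therefore cannot be told apart from a change of slide, scanner and animals, while Dnmt3a-KO and WT stood side by side within every day. Dnmt3a itself gave 0.2398, 0.525, 0.542 and 0.389 in Dnmt3a-KO cells on days 2, 4, 5 and 6, against 0.519, 2.65, 2.498 and 2.04 in WT cells, a mean log2 difference of -2.01 ± 0.60 (SD over 4 days; limma adjusted p = 0.101), and no source used here says whether its probe lies in the deleted part.

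Cdkn1c was the inhibitor with the largest genotype difference among the 7 probes that stand for the genes, lower in Dnmt3a-KO cells on the 3 later days and level on day 2. Its probe, on mm9 chr7:150644753-150644812, minus strand, read 75.02, 3.83, 7.30 and 5.13 in Dnmt3a-KO cells on days 2, 4, 5 and 6. It read 77.6, 12.99, 13.9 and 9.84 in WT cells on the same days. Both day 2 arrays lay far above all later ones, and from day 4 on every Dnmt3a-KO array lay below every WT array. Dnmt3a-KO cells held 96.6% of the WT signal on day 2 and 29.5%, 52.4% and 52.1% of it on days 4, 5 and 6. Over the 4 days the mean log2 difference was -0.92 ± 0.70 (SD), with a 95% interval of -1.62 to -0.23, and adjusted over all genes it missed the threshold of 0.05 (limma adjusted p = 0.319). Over days 4 to 6 the mean was -1.21 ± 0.48 (SD, n = 3 days), 2.32-fold lower in Dnmt3a-KO cells, with limma adjusted p = 0.223 in the fit without day 2. The change in the genotype difference between day 2 and the later days was -1.16 ± 0.41 (SE; limma adjusted p = 0.720), a comparison chosen after the data were seen.

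Cdkn1c also had the steepest course of the family. From day 2 to day 4 its signal was 19.6-fold lower in Dnmt3a-KO cells and 5.98-fold lower in WT cells, and from day 4 to day 6 it moved 1.34-fold up in Dnmt3a-KO cells and 1.32-fold down in WT cells. The fitted slope over both genotypes was -0.84 ± 0.20 log2 per day (SE; limma adjusted p = 0.0176). Without day 2 it was 0.0055 per day (adjusted p = 0.997), so the fall rests on the day 2 arrays. Without day 5 the slope of -0.86 had an adjusted p of 0.070, and with slide as a random block -0.66 had 0.112.

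**Figure D1:**
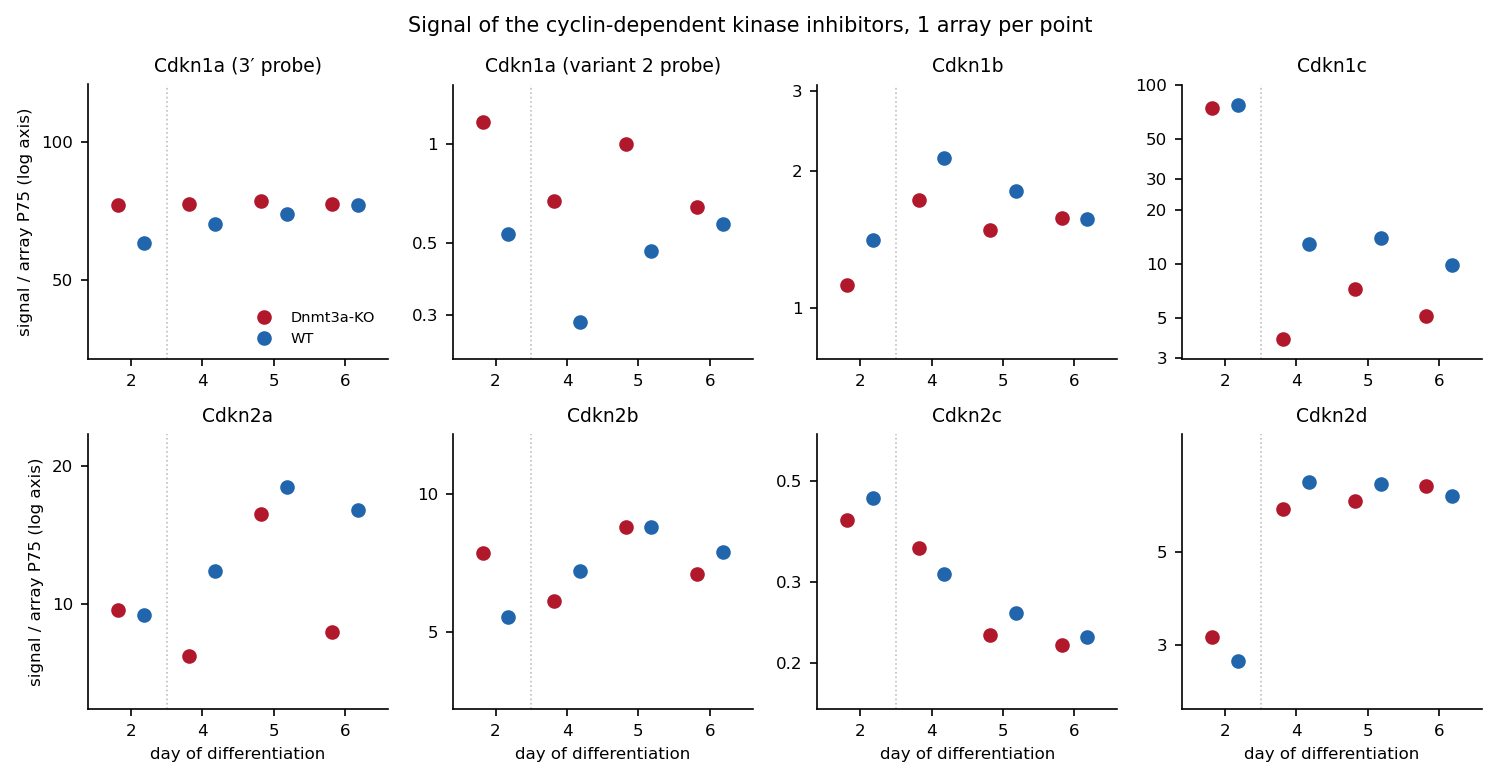
Relative signal (processed intensity over the array's 75th percentile, log axis with its own range in each panel) of the probe that stands for each inhibitor, and of the second Cdkn1a probe, on days 2, 4, 5 and 6; each point is 1 array, Dnmt3a-KO at the left of each day and WT at the right, and the dotted line parts day 2, which had its own slide and scanner. Cdkn1c reads 75.02 in Dnmt3a-KO and 77.6 in WT cells on day 2 and between 3.83 and 13.9 later, with Dnmt3a-KO below WT on days 4 to 6, and the variant 2 probe of Cdkn1a shows every Dnmt3a-KO array above every WT array.

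Cdkn1a, which p53 and MyoD can both induce, was read by probes on different parts of the gene, and they differed in how far the genotypes stood apart. The probe nearer the 3′ end, mm9 chr17:29237377-29237436, plus strand, was printed in 10 spots. It read 73.0, 73.4, 74.3 and 73.2 in Dnmt3a-KO cells on days 2, 4, 5 and 6, against 60.3, 66.3, 69.7 and 73.1 in WT cells. Dnmt3a-KO arrays were flat and WT arrays climbed to the same level by day 6, so the difference was 0.27, 0.15, 0.09 and 0.00 on the 4 days. The spread between the spots of that probe within an array was 0.056 to 0.115 (SD of log2). The mean difference was 0.13 ± 0.11 (SD over 4 days; 95% interval -0.06 to 0.32; limma adjusted p = 0.520).

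The other Cdkn1a probe was annotated to transcript variant 2 and gave the only case among the 11 in which the genotypes did not overlap. On mm9 chr17:29227986-29228045, plus strand, it read 1.17, 0.671, 1.0004 and 0.642 in Dnmt3a-KO cells on days 2, 4, 5 and 6, against 0.534, 0.286, 0.472 and 0.572 in WT cells. The lowest Dnmt3a-KO array was above the highest WT array, which 1.65% of the 24427 probes tested showed in either direction. Dnmt3a-KO cells held 2.20, 2.35 and 2.12 times the WT signal on days 2, 4 and 5 and 1.12 times on day 6. The mean difference was 0.91 ± 0.50 (SD over 4 days; 95% interval 0.40 to 1.41), and in the limma fit over all probes its adjusted p was 0.248. Without day 6, on which the difference was smallest, the mean was 1.15 with an adjusted p of 0.287, and with normexp background correction the mean over 4 days was 0.54 with 0.233.

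RefSeq gives Cdkn1a an upstream and a downstream start, and the position of that probe was set against them. In GRCm38.p6 the starts lie 2790 bases apart, and the gene ends 6953 bases past the downstream start, while the probes lie 9391 bases apart in mm9, which is more than a transcript from the downstream start spans, although the builds differ. The 250 bases before each start are shown because they differ in CpG dinucleotides, the sites that Dnmt3a methylates, printed in capitals; no methylation was measured here. They are on the plus strand, chr17:29090729-29090978 for the upstream start and chr17:29093519-29093768 for the downstream start, as RefSeq gives them for GRCm38.p6.
Cdkn1a upstream start: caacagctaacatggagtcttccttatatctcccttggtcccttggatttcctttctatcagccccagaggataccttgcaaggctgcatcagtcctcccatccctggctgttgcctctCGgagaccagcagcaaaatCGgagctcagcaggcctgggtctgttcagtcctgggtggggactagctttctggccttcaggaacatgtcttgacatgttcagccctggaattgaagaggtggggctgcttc
Cdkn1a downstream start: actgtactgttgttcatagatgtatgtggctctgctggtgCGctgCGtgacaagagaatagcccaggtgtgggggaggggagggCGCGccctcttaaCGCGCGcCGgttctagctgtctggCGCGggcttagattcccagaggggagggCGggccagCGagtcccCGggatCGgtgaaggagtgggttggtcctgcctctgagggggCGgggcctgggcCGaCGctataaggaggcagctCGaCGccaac
The upstream window holds 2 CG, which 81.2% of the 32851 RefSeq windows of this length reach, and the downstream window holds 19, which 19.7% reach. The E-box CANNTG, a motif that reads the same on both strands and that myogenic factors can bind, was found 0 times in the upstream window and 1 time in the downstream one, and 66.2% of all windows hold it. Of the 7 inhibitors 6 had a window in the table, 9 windows in all, with 2 to 40 CG each, the most at the upstream start of Cdkn2a and the fewest at the upstream start of Cdkn1a; Cdkn1c had none.

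Cdkn1b, which holds cells in quiescence and is removed by the Skp2 ligase, was slightly lower in Dnmt3a-KO cells on 3 of 4 days. Its probe on mm9 chr6:134875424-134875483 read 1.12, 1.73, 1.48 and 1.58 in Dnmt3a-KO cells on days 2, 4, 5 and 6, against 1.41, 2.13, 1.80 and 1.57 in WT cells. The groups overlapped, and the first 3 differences of -0.33, -0.30 and -0.28 were close together while that of day 6 was 0.01. The mean was -0.23 ± 0.16 (SD over 4 days; 95% interval -0.44 to -0.01; limma adjusted p = 0.376). A dimmer probe at chr6:134873606-134873665, with signals of 0.0360 to 0.0640 in Dnmt3a-KO cells and 0.0476 to 0.0591 in WT cells, gave -0.14 ± 0.28 and had the opposite sign from the brighter probe on days 4 and 6.

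Cdkn2a, whose product p16 builds up in senescent cells, was lower in Dnmt3a-KO cells on each of the 3 later days. Its brighter probe, on mm9 chr4:88920405-88920464, minus strand, read 9.67, 7.68, 15.7 and 8.67 in Dnmt3a-KO cells on days 2, 4, 5 and 6, against 9.45, 11.8, 18.0 and 16.1 in WT cells. Its differences were 0.03, -0.62, -0.20 and -0.89, with a mean of -0.42 ± 0.41 (SD; 95% interval -0.85 to 0.01; limma adjusted p = 0.399). The second probe starts 138 bases away and differed from the first in sign on day 2. It read 0.411, 0.285, 0.663 and 0.385 in Dnmt3a-KO cells, against 0.437, 0.489, 0.801 and 0.847 in WT cells, with a mean difference of -0.57 ± 0.48 (limma adjusted p = 0.346 over all probes), and it was lower in Dnmt3a-KO cells on 4 of 4 days. The groups overlapped at both probes, because day 5 was the highest day of Dnmt3a-KO cells and day 2 the lowest of WT cells. Both probes carry the accession of one Cdkn2a transcript and lie next to each other, and which share of the signal came from p16 and which from Arf was not tested.

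Cdkn2b lies beside Cdkn2a on chromosome 4 and is a known target of TGF-beta signalling. It was higher in Dnmt3a-KO cells on day 2 and close to WT after it. Its brighter probe, on mm9 chr4:88952276-88952335, read 7.44, 5.84, 8.48 and 6.69 in Dnmt3a-KO cells, against 5.39, 6.80, 8.47 and 7.47 in WT cells. The difference was 0.46 on day 2 and between -0.22 and 0.00 on the later days. The second probe, on chr4:88952720-88952779, gave 0.46 on day 2 and -0.15 to 0.16 later, so the probes never lay more than 0.16 apart in a daily difference. The mean differences were 0.02 ± 0.31 and 0.08 ± 0.28 (SD; limma adjusted p = 0.956 and 0.802), and that of the brighter probe was -0.12 without day 2. The change of the difference between day 2 and the later days was -0.59 ± 0.17 (SE; limma adjusted p = 0.692).

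Cdkn2c, an INK4 inhibitor known from muscle differentiation, read 0.411, 0.357, 0.230 and 0.218 in Dnmt3a-KO cells on days 2, 4, 5 and 6, against 0.459, 0.313, 0.258 and 0.228 in WT cells, at mm9 chr4:109333508-109333567. The genotypes overlapped throughout and the day set the order of the arrays. The mean genotype difference was -0.05 ± 0.16 (SD; 95% interval -0.27 to 0.17; limma adjusted p = 0.825). Over the days Cdkn2c fell by 0.25 ± 0.04 log2 per day (SE; limma adjusted p = 0.00980), or by 0.09 with normexp background correction, and it was 1.88-fold lower on day 6 than on day 2 in Dnmt3a-KO cells and 2.01-fold lower in WT cells. Unlike the slopes of Cdkn1c and Cdkn2d, that of Cdkn2c was no smaller over days 4 to 6, at -0.29 per day, but with 6 arrays the adjusted p was 0.576; without day 5 it was 0.058.

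Cdkn2d, which is known to stay high in cells that have left the cycle, took the opposite course. At mm9 chr9:21092934-21092993 it read 3.14, 6.35, 6.66 and 7.21 in Dnmt3a-KO cells on days 2, 4, 5 and 6, against 2.74, 7.37, 7.30 and 6.83 in WT cells. Both day 2 arrays lay below all later ones, and the 6 later arrays spanned only 1.16-fold. Over the days Cdkn2d rose by 0.32 ± 0.07 log2 per day (SE; limma adjusted p = 0.0152), and without day 2 the slope was 0.02 per day (adjusted p = 0.950). Without day 5 its adjusted p was 0.068, and with slide as a random block 0.060. The genotype difference averaged -0.02 ± 0.19 (SD; 95% interval -0.26 to 0.22; limma adjusted p = 0.948).

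**Figure D2:**
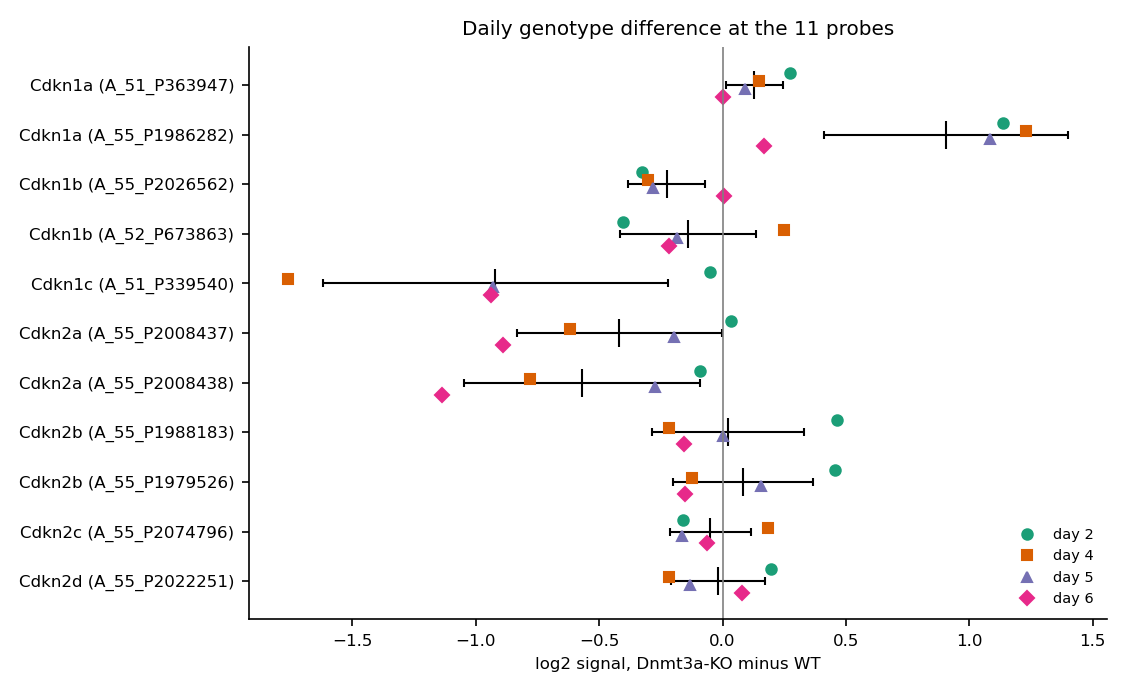
Log2 difference between Dnmt3a-KO and WT of the same day at each of the 11 inhibitor probes (x axis), with 1 symbol per day; the vertical tick is the mean of the 4 days and the whisker its SD. Cdkn1c runs from -0.05 on day 2 to -1.76 on day 4, the variant 2 probe of Cdkn1a lies above 0 on all days, and Cdkn2b parts day 2 at 0.46 from the later days at both probes.

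Read against all genes, 0 to 2 of the 7 inhibitors met each of the following criteria. No inhibitor passed the adjusted threshold for the genotype effect, which 0.0102% of the 19655 genes passed, and at an unadjusted p under 0.05 there were 2 of 7, Cdkn1b and Cdkn1c, where 12.9% of all genes lay. Over all probes 0 of 11 passed the adjusted threshold, with a background of 0.0328%, and 4 of 11 had an unadjusted p under 0.05, with a background of 12.8%. Cdkn1c and Cdkn2a were lower on days 4, 5 and 6, as were 20.9% of all genes. Cdkn1c was the 1 gene of 7 that was lower on all 4 days, against 11.5% of all genes, and Cdkn1a by its 3′ probe the 1 that was higher on all 4, against 10.9%. No gene of the family had genotypes that did not overlap by the probe that stands for it, which 1.71% of genes had. On days 4 to 6 alone Cdkn1a and Cdkn1c had such genotypes, as did 15.8% of genes. For Cdkn1a this count and the one over all 4 days rest on day 6, with 73.2 in Dnmt3a-KO and 73.1 in WT cells. That difference of 0.0027 log2 was below the SD between the spots of the probe, 0.106 and 0.102 in those arrays. Cdkn1c was the 1 that differed 2-fold or more on day 4, against 4.59% of genes. By the estimate alone, 0.875% of genes had a genotype difference as low as that of Cdkn1c.

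Over the days 1 of 7 inhibitors rose (Cdkn2d) and 2 fell (Cdkn1c and Cdkn2c), where 25.9% of all genes rose and 19.5% fell. Without day 2 the limma slope passed for 0 genes (1573 had an unadjusted p under 0.05), so no rise or fall over the days given here, of the inhibitors or of other genes, was called without the day 2 arrays. The genotype by day interaction, the difference between the slopes, gave 0 calls after adjustment by limma among the 7 and among all genes, and 0 of 7 with an unadjusted p under 0.05, against 219 genes or 1.11%. That fit had no day block, so a step after day 2 shared by both genotypes widened the spread it was tested against. The absence of calls therefore does not show that the courses were equal. The change of the genotype difference between day 2 and the later days gave 2 of 7 with an unadjusted p under 0.05, Cdkn1c and Cdkn2b, against 6.88% of genes.

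Of the kinases and cyclins that the inhibitors bind, none passed the genotype threshold. Lower in Dnmt3a-KO cells on all 4 days were 1 of 4 tested kinases, 2 of 4 G1 cyclins and 2 of 4 S and M cyclins, where 11.5% of all genes were, and on day 5 the medians of these lists were 0.05, -0.13 and -0.01. Cdk1, the kinase of mitosis, read 0.342, 0.0524, 0.0971 and 0.0685 in Dnmt3a-KO cells on days 2, 4, 5 and 6, against 0.807, 0.159, 0.119 and 0.161 in WT cells, a mean of -1.09 ± 0.56 (SD; limma adjusted p = 0.211). Cdk2 averaged -0.12 and Cdk6, a partner of the INK4 inhibitors, 0.15. Among 4 tested G1 cyclins Ccne1, the activator of Cdk2, averaged -0.67 ± 0.30 and Ccnd2 -0.48 ± 0.85, and Ccnd1 had a slope of -0.38 per day (limma adjusted p = 0.054). All 4 tested S and M cyclins fell over the days, as did 19.5% of all genes, and their median genotype difference was -0.80, with Ccnb1 at -0.97 and Ccna2 at -0.96, beside -0.01 for all genes.

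Genes that mark dividing cells had a median below 0 on every day but day 5. Of 17 tested proliferation markers 0 passed the genotype threshold, 6 were lower in Dnmt3a-KO cells on all 4 days, where 11.5% of all genes were, and 14 fell over the days, where 19.5% did. Their median difference was -0.92, -1.001, 0.03 and -0.74 on days 2, 4, 5 and 6, while Cdkn1c gave -0.05, -1.76, -0.93 and -0.94. Cdkn1c was thus level on day 2, when the markers were low in Dnmt3a-KO cells, and low on day 5, when they were level; the difference between these patterns was not tested. Mki67 averaged -0.96 ± 0.64, the mitotic kinase Bub1 -0.87 ± 0.75, and Rrm2, a subunit of ribonucleotide reductase, 0.13 ± 0.57. In bulk samples fewer cells of a kind and less RNA per cell cannot be told apart.

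The targets and the removal of the inhibitors were split. Of 3 pocket proteins, which active kinases phosphorylate, 0 passed the genotype threshold. Rbl2 averaged 0.11 ± 0.07, and Rbl1 averaged 0.07 ± 0.58 from differences of opposite sign, -0.79 on day 2 and 0.38, 0.29 and 0.41 on days 4, 5 and 6. Of 10 E2F factors and partners 0 passed the genotype threshold, with E2f7 at -0.88 ± 0.55, E2f1 at -0.64 ± 0.44 and E2f5 at 0.18 ± 0.22, while E2f6 rose by 0.41 per day and E2f2 fell by 0.46 per day (limma adjusted p = 0.0140 and 0.0300). Of 10 genes of inhibitor turnover 0 passed it too. Dtl, the receptor that sends p21 to degradation, averaged -0.84 ± 0.26 and was lower on 4 of 4 days, and Cdc20 averaged -0.78 ± 0.68. The ligase scaffolds Cul1 and Cul4a both averaged 0.19 and did not overlap between genotypes, as 1.71% of all genes did not, and the other 8 overlapped. Skp2, the receptor for p27, fell by 0.48 per day (limma adjusted p = 0.0133).

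**Figure D3:**
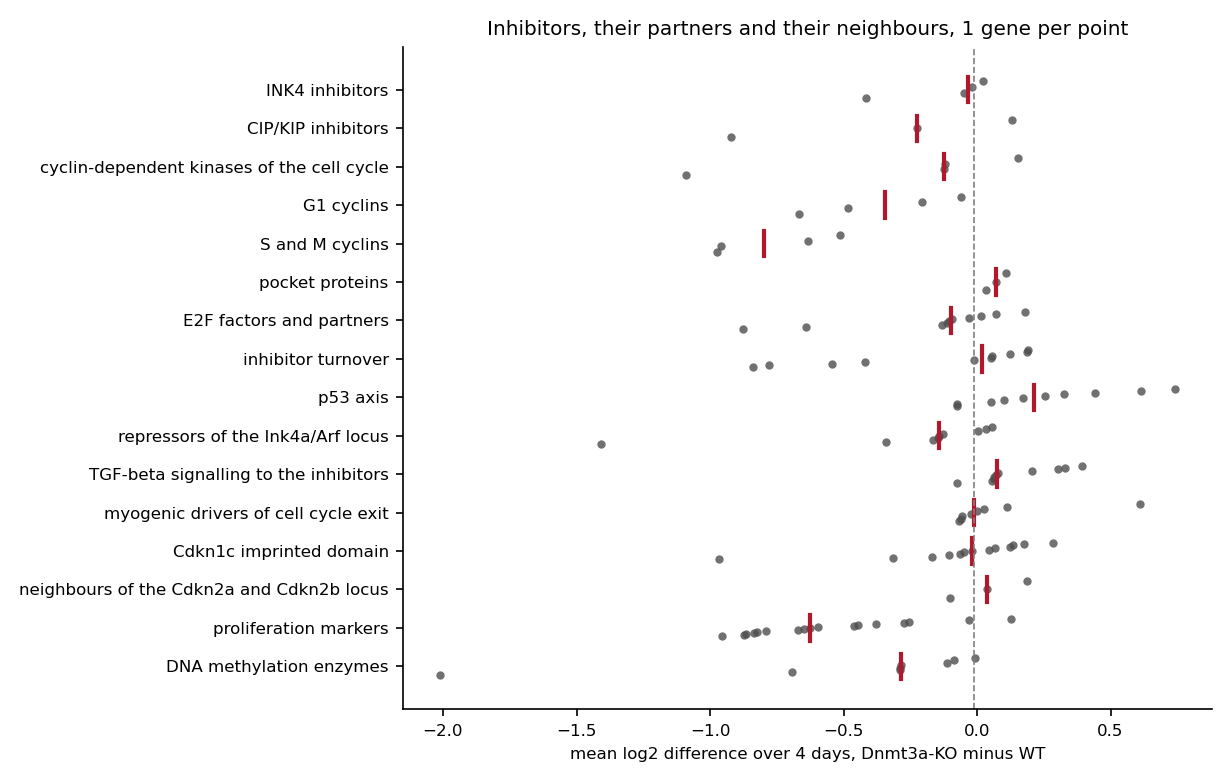
Mean log2 difference over the 4 days, Dnmt3a-KO minus WT, for each tested gene of 16 lists of inhibitors, partners and neighbours (1 point per gene); red bars are list medians and the dashed line is the median of all 19655 genes, -0.01. S and M cyclins and proliferation markers have the lowest medians, -0.80 and -0.62, and the p53 axis the highest, 0.21.

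The p53 axis holds p53, which induces Cdkn1a, its regulators Mdm2 and Mdm4, and other known p53 targets, and none of them passed the genotype threshold. Its median difference was 0.21, and 6 of 10 members were higher on all 4 days, where 10.9% of all genes were. Gadd45a, a growth arrest gene, read 16.8, 14.8, 11.2 and 12.6 in Dnmt3a-KO cells on days 2, 4, 5 and 6, against 9.77, 7.70, 7.37 and 8.08 in WT cells. Its genotypes did not overlap, and its mean difference was 0.74 ± 0.15 (SD; limma adjusted p = 0.101). Trp53inp1 averaged 0.61 ± 0.35 and Ccng1 0.44 ± 0.30, and they did not overlap either, as 1.71% of all genes did not. The other members of the axis overlapped. Trp53 and Mdm4 both averaged -0.08 and fell over the days by 0.38 and 0.28 per day, and Plk2 and Btg2 rose by 0.28 and 0.22 per day. The myogenic drivers of cell cycle exit had a median of -0.01, with Myf6 at 0.61 ± 0.42, Mef2a at 0.11 and Mef2d at -0.07. Of 8 tested drivers 1 rose over the days, Mef2c, and 3 fell, among them Myod1 by 0.33 per day and Mef2d by 0.24, where 25.9% of all genes rose and 19.5% fell.

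Of the genes that restrain the Ink4a/Arf locus 0 of 9 tested passed the genotype threshold. Tbx2, a T-box repressor of Cdkn2a, averaged -1.41 ± 0.89, with differences of -0.24, -1.22, -1.89 and -2.28, but it was dim, at 0.06 or less on all arrays, and near the floor of 0.00763 in Dnmt3a-KO cells on day 6. Twist1 averaged -0.34 ± 1.13 and rose by 0.80 per day, but it was dim as well. On day 2 it lay at the floor in WT cells and read 0.0102 in Dnmt3a-KO cells, so its slope starts from floor values. Id1 averaged 0.06 and Eed 0.03, and Ezh2, the methyltransferase of the Polycomb complex, fell by 0.33 per day. Of the neighbours of Cdkn2a and Cdkn2b on chromosome 4, 3 could be tested and none passed the genotype threshold, with Mllt3 at 0.19, Klhl9 at 0.04 and Mtap at -0.10. In TGF-beta signalling, which acts on Cdkn2b, 0 of 10 passed the genotype threshold; the ligand Tgfb1 averaged 0.39 ± 0.33 and its receptor Tgfbr1 0.33 ± 0.27, Tgfb3 averaged -0.08, and Tgfb1 and Smad7 rose by 0.46 and 0.43 per day.

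The list for the imprinted domain around Cdkn1c also held H19, Igf2 and Ins2, which lie beside that domain. Its median genotype difference was -0.02 over 13 tested genes, of which 0 passed the genotype threshold. Kcnq1ot1, the long RNA that silences the domain on the paternal copy, read 1.54, 0.388, 0.205 and 0.226 in Dnmt3a-KO cells on days 2, 4, 5 and 6, against 1.96, 0.435, 0.303 and 0.257 in WT cells. It was lower on 4 of 4 days, by a mean of -0.32 ± 0.18 (SD; limma adjusted p = 0.317), and it fell by 0.75 per day (limma adjusted p = 0.00820). The dim Kcnq1 gave -0.16, -2.40, -1.45 and 0.15, and the dim Slc22a18 averaged 0.28 ± 0.54. Tssc4 averaged 0.18 ± 0.16, Cars rose by 0.25 per day, and Phlda2 and Trpm5 were too dim to test.

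**Figure D4:**
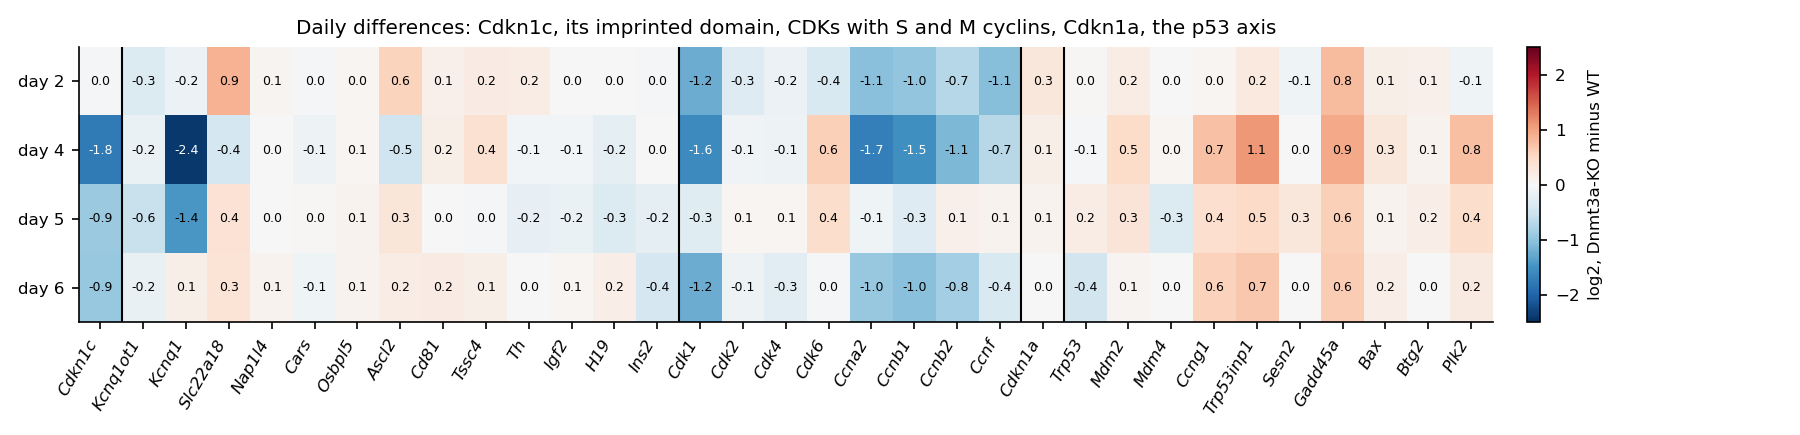
Daily log2 difference, Dnmt3a-KO minus WT (colour and printed value, rows are days), for Cdkn1c, the 13 tested genes listed for its imprinted domain (H19, Igf2 and Ins2 lie beside it), 4 cyclin-dependent kinases with 4 S and M cyclins, Cdkn1a by its 3′ probe, and 10 genes of the p53 axis. Cdkn1c is low on days 4, 5 and 6, Cdk1 and the cyclins are low on days 2, 4 and 6, and Gadd45a is higher on all 4 days.

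The genes whose course over the 8 arrays was most like that of Cdkn1c were Olfr1419, Fmn2, Fkbp4, Oprm1 and Cox6a1, with Pearson r of 0.994, 0.993, 0.993, 0.992 and 0.991 on the log2 scale. The least alike were Flywch1, Ces2c, Rrad, Cxcl10 and Pigq, with r of -0.997, -0.994, -0.993, -0.993 and -0.993. Olfr1419 was 1.75-fold and Fkbp4 1.38-fold brighter on day 2 than on day 4 in WT cells, where Cdkn1c was 5.98-fold brighter. The arrays share slide and scanner by day, and 1706 of the other 19654 genes had an r over 0.9, so much of the likeness may describe the step after day 2. The genotype entered it too. Olfr1419 had differences of -0.02, -0.47, -0.18 and -0.43 on days 2, 4, 5 and 6, and Flywch1 of 0.04, 0.38, 0.16 and 0.31. These genes were picked by r, and the part of each source in it was not tested.

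The cells carried the muscle markers on all days, and no marker passed the genotype threshold. Myog read 62.9 to 93.2 in Dnmt3a-KO cells and 68.6 to 90.5 in WT cells, and Myod1 8.52 to 23.4 in Dnmt3a-KO cells and 8.24 to 22.0 in WT cells. Pax7, the marker of the stem cell state, averaged -0.74 ± 0.47 and Mymk, the fusion protein, 0.16 ± 0.06, while Myf5 was well above background on no array. The summed signal of the 5 tested smooth muscle and pericyte markers was 3.09 to 7.95 in Dnmt3a-KO cells and 4.61 to 6.97 in WT cells, and that of the 6 tested fibro-adipogenic markers 5.88 to 17.8 in Dnmt3a-KO cells and 6.81 to 14.2 in WT cells. The daily medians of the smooth muscle list were 1.54, -0.54, 0.00 and -0.94. Its tested genes were Cnn1 at -0.81 ± 2.41, Notch3 at -0.66 ± 0.46, Rgs5 at 0.40 ± 1.42, Cspg4 at 0.29 ± 0.89 and Pdgfrb at -0.08 ± 1.75. The daily medians of the fibro-adipogenic list were -0.04, -0.14, 0.34 and -0.55. Lower in mean were Col3a1 at -0.92 ± 0.65 and the dim Pi16 at -1.06 ± 0.92. Pi16 read 0.0121 to 0.0377 in Dnmt3a-KO cells and 0.0394 to 0.0501 in WT cells, without overlap, as 1.71% of all genes did. Higher in mean were Dcn at 0.74 ± 0.99, Pdgfra at 0.48 ± 0.63, Cd34 at 0.22 ± 0.56 and Ly6a at 0.19 ± 0.64. Cnn1 and Pdgfra in WT cells on day 2, and Rgs5 in Dnmt3a-KO cells on day 5, lay at the floor of 0.00763. The part of both lists in the differences of Cdkn1c and Cdkn2a was not tested. Endothelial markers, of which Kdr gave nearly all the signal, summed to 2.46 to 3.90 in Dnmt3a-KO cells and 2.31 to 3.87 in WT cells. Kdr averaged -0.09, Pecam1 0.19 and Emcn -0.04, and Flt1, dim and near the floor on some arrays, -1.52 ± 1.41. Leukocyte markers, of which Itgam gave nearly all the signal, summed to 8.80 to 21.1 in Dnmt3a-KO cells and 10.2 to 20.6 in WT cells. Schwann cell markers summed to 0.310 to 0.534 in Dnmt3a-KO cells and 0.297 to 0.775 in WT cells. Dpt, Lum, Tek and Cd68 were well above background on no array.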

How the data were processed

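Day 2 arrays were read on a G2505C scanner with Feature Extraction 11.0.1.1 and later arrays on a G2505B scanner with version 9.5.3.1, giving spot intensity, per the file headers; the submitters' processing notes name Feature Extraction 9.5. The deposited score, set against the scanner signals, is 100 times the processed signal over the 75th percentile of all spots, with negative values at 0 (median 6 in each column). Probe positions follow build mm9, per the file headers.

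Spots flagged as outliers were left out, processed signals were divided by the array's 75th percentile, floored at 0.00763 and taken as log2; the deposited files hold them as linear intensity. The probe with the highest mean stood for a gene and needed 4 or more of 8 arrays well above background. Genotype (day as a fixed block), day slope and interaction were fitted with limma 3.58.1 in R 4.3.3 over 19655 genes, with Benjamini-Hochberg adjustment. The same fits were then run on simulated data that took their spread from the real arrays. Days paired the genotypes by label. Accessions were named through RefSeq (26055 of 39429 probes matched). All probes of the inhibitors were reported, and of each list at most 2 genes per direction by genotype difference and by slope. Further cell type markers were named, and Ccng1 because its genotypes did not overlap. Members and lists were chosen with earlier results of these data known.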

Additional observations from a re-analysis of the deposited data

Results flagged for a closer look

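Within the 4 arrays of a genotype, or the 4 daily differences, 5 of 33 sets held a value set apart from the others by more of the whole range than Dixon's 95% critical value allows; chance flags about 1 in 20. The Dnmt3a-KO minus WT difference of day 6 stood apart at the variant 2 probe of Cdkn1a, at 0.17 log2 with a gap of 0.863 of the range, and at Cdkn1b, at 0.0069 with 0.866. Both genes had differences close together on days 2, 4 and 5. The day 2 array stood apart for Cdkn1c in WT cells, at a log2 signal of 6.28 with a gap of 0.832. For Cdkn2d day 2 stood apart at 1.65 in Dnmt3a-KO cells, with a gap of 0.847, and at 1.46 in WT cells, with a gap of 0.923. Day 2 had its own slide, scanner and sex-linked transcripts, and their part in these values was not tested.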

How the results depend on the processing

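Of 16 alternatives 8 moved the estimates of the genotype difference and 8 left them identical, so that only the first could turn a sign; in those the direction stayed for Cdkn1c (-1.21 to -0.64), Cdkn1a (0.08 to 0.20), Cdkn1b (-0.30 to -0.18) and Cdkn2a (-0.57 to -0.26), and for the variant 2 probe of Cdkn1a in 8 of 14 settings chosen after seeing the data that moved its estimate (0.54 to 1.15); no inhibitor passed the adjusted threshold in any of the 16 or 14. The sign turned for Cdkn2b without day 2 (-0.12), for Cdkn2c with normexp (0.0033) and for Cdkn2d in 3 settings (up to 0.05). The limma count over all genes was 2, and it was 0 with quantile scaling, with the deposited score, with detection on 2 of 8 arrays or without a filter, 16 with normexp, 38 with detection on 8 of 8 arrays, 8 over all probes, 93 with trended robust variance, and 0 to 3 without 1 day. Without the replicate block of day it was 0, and with day as a random replicate block 128. The slope count was 8920, with 0 to 9863 without 1 day, 1935 with slide as a random block and 0 on days 4 and 5 alone; 3 inhibitors passed it, with 0 to 3 without 1 day, 1 with slide as a block (Cdkn2c) and 0 on days 4 and 5. The slope of Cdkn1c was -1.08 to 0.0055 without 1 day, 0.0055 without day 2 (adjusted p = 0.997), -0.66 with slide as a block and 0.52 on days 4 and 5; fewer arrays entered all but the slide fit, and the cause was not tested further. The interaction count was 0 in every setting, the added fixed replicate block included.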

Other observations

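Of 8 tested DNA methylation enzymes 0 passed the genotype threshold and 5 were lower in Dnmt3a-KO cells on all 4 days, where 11.5% of all genes were. Uhrf1, which guides maintenance methylation to newly made DNA, averaged -0.69 ± 0.36 (SD over 4 days) and fell by 0.45 per day, Dnmt3b fell by 0.30 per day, and the dim Dnmt3l rose by 0.41 per day. Itgam, a leukocyte marker, read 7.74 to 20.8 in Dnmt3a-KO cells and 9.01 to 20.3 in WT cells and fell by 0.31 per day, while Csf1r rose by 0.52 per day. Ptprc, another leukocyte marker, was near the floor, at 0.00892 to 0.0307 in Dnmt3a-KO cells and 0.0128 to 0.0311 in WT cells. Its slope was 0.36 per day, and the dim Adgre1 and Cd14 had slopes of 0.48 and 0.19. Whether the Itgam signal came from leukocytes was not tested.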
